A study of Mus musculus with 8 samples.

Results

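The core autophagy machinery is described here as the transcripts of 35 mouse genes, listed by name with earlier results of these data known. They encode the proteins that start an autophagosome, build its membrane, lipidate the ATG8 proteins and hold the finished vesicle to the lysosome. All 35 had at least 1 probe on the array, all 35 passed the filter on dim probes, and they stand among 21528 genes tested. Each was well above background on all 8 arrays, and none was saturated on any array. The cells were J774.1, an established macrophage-like line from BALB/c mice, measured as total RNA on 1-colour Agilent arrays. There were 4 groups of 2 biological replicates: control cells, cells given isorhamnetin at 10 µM for 6 h, cells given tamarixetin at 10 µM for 6 h, and cells given Torin1 at 1 µM for 6 h. The sources used here do not state how control cells were handled. As compounds, isorhamnetin and tamarixetin are isomers, both quercetin with an added O-methyl group, which sits on a different hydroxyl of the same ring in each. Torin1 inhibits the kinase mTOR.

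Autophagy delivers cytoplasm to the lysosome inside double-membraned vesicles. Under nutrient-rich conditions mTOR complex 1 phosphorylates ULK1 and ATG13 and holds the starting kinase in check, so that mTOR inhibitors are used to set autophagy off. The class III phosphatidylinositol 3-kinase then marks the growing membrane with phosphatidylinositol 3-phosphate (PI3P), ATG2 proteins bring lipid to it, and ubiquitin-like conjugation attaches ATG8 proteins to its surface. In macrophages the same conjugation enzymes also act in the defence against intracellular microbes and in phagocytosis. Most of these steps are controlled at the level of the protein, and transcript levels alone do not measure autophagic flux.

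Levels are log2 signals relative to the 75th percentile of the same array. A level of 0 therefore equals that percentile, and levels of different genes are not compared, because each probe has its own brightness. Differences are in log2 units with the standard error (SE) or 95% interval of limma's moderated fit, and a gene was called at a Benjamini-Hochberg adjusted p under 0.05 over all genes tested. The 75th percentile of the signal ran from 318 to 403, and 43.9% to 54.1% of probes were well above background. Replicate arrays correlated at 0.992 to 0.997 over genes. All 8 arrays lay on 1 slide in 1 scan, with each group in positions of its own, so position and group cannot be told apart. Of 10 macrophage markers 8 were above background on all 8 arrays, while Mertk and Mrc1 were on none. Of 5 T cell markers 2 (Cd3e and Cd4) were above background on all 8 arrays, and their list had a summed linear level of 5.23 to 5.68 in control and 3.18 to 3.55 with Torin1, against 718 to 731 and 736 to 747 for the macrophage list. Within the macrophage list Adgre1 rose with Torin1 by 1.43, Cd68 by 0.35, Cd14 by 0.31 and Ptprc by 0.25, and Fcgr1 fell by 2.23 on the log2 scale. Csf1r, Itgam and Lyz2 were not called. Of the other lists Cd4 fell by 0.79, the endothelial marker Kdr (above background on 4 of 8 arrays) was called lower and the fibroblast marker Dcn (on 5 of 8) higher. Cd3g and Cd8a were above background on no array, and the part of these markers in the results was not tested. No B cell, fibroblast, epithelial or endothelial marker was above background on all 8. In bulk RNA, fewer cells of a type and less RNA per cell cannot be told apart.

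With Torin1, 15 of the 35 members were higher than in control, 4 were lower and 16 were not called. Tecpr1, Atg2a, Atg14, Wdr45, Atg7 and Vmp1 rose most, from 2.87-fold for Tecpr1 to 1.64-fold for Vmp1, and Atg4d, Uvrag, Atg10 and Atg4a fell. With isorhamnetin and with tamarixetin no member was called. Torin1 changed much of the transcriptome: 49.4% of all genes were called, 19.3% higher and 30.1% lower, so the 54.3% of members called is near the background. The median difference with Torin1 was 0.20 over the members and -0.10 over all genes. With arrays scaled on their median it was 0.01 and -0.28, and under quantile normalization 0.32 and -0.06. The 2 Torin1 arrays lay wholly above the 2 control arrays for 22 members and wholly below for 8, and they overlapped for 5. Over all 21528 genes the groups did not overlap for 79.3%, with 6783 wholly above control and 10293 wholly below. An unadjusted p under 0.05 was reached by 22 members (62.9%) and by 56.7% of all genes.

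**Figure D1:**
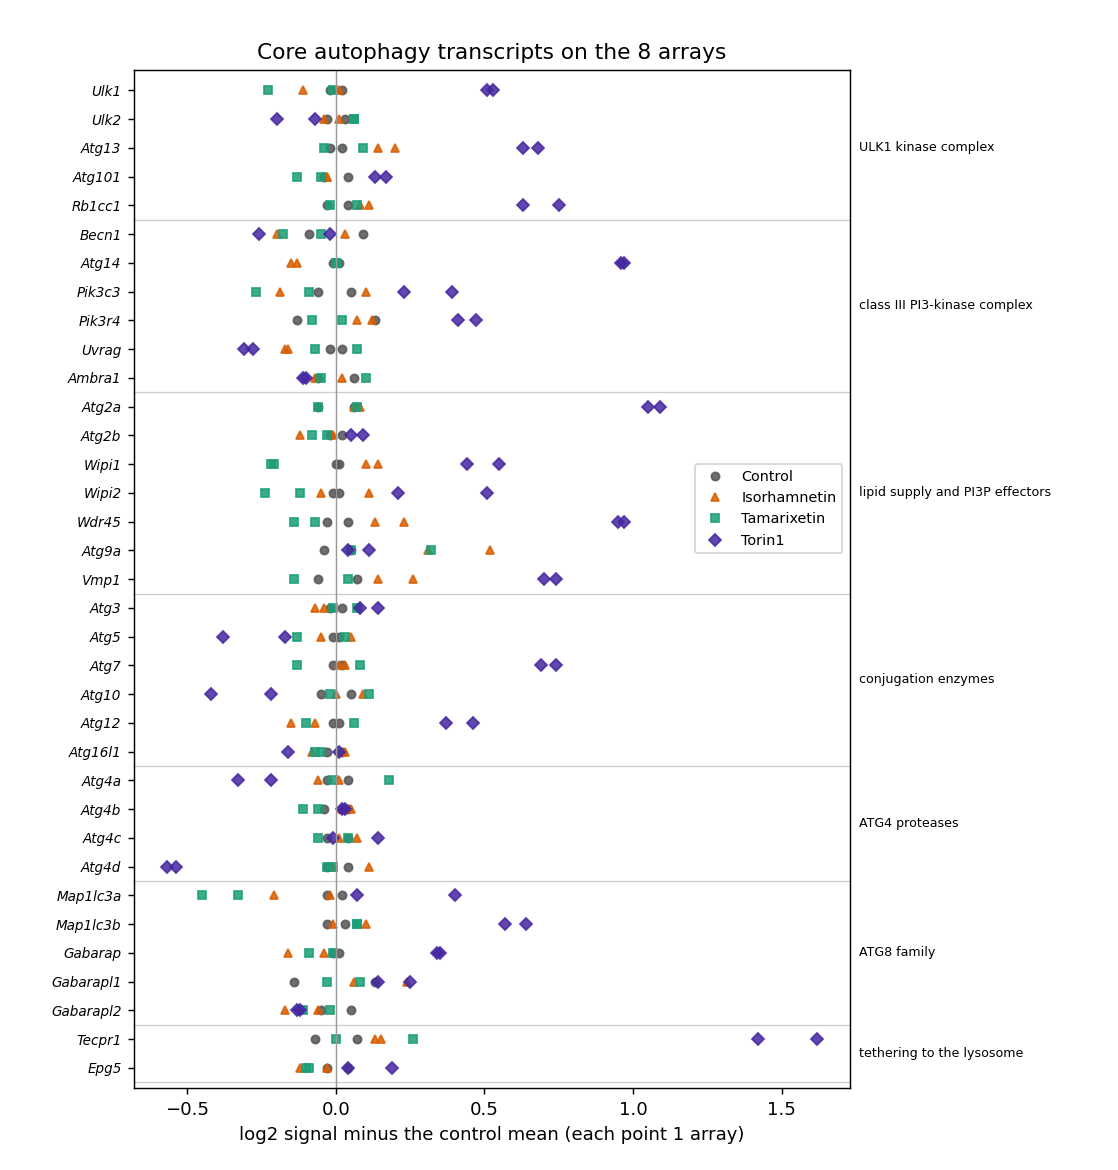
Level of each of the 35 transcripts on each of the 8 arrays, as log2 signal minus the mean of the 2 control arrays (horizontal axis), grouped by role. Each point is 1 array. The Torin1 points lie to the right of the others for Tecpr1, Atg2a, Atg14 and Wdr45 and to the left for Atg4d, while the points of both flavonols lie mostly around the control.

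The ULK1 kinase complex, which receives the signal from mTOR, had 3 of 5 members higher with Torin1 and none lower, with a median difference of 0.52. The share called was 60%, against 49.4% of all genes (19.3% higher and 30.1% lower). Under median scaling 2 were higher and 1 lower, with a median of 0.33, and under quantile normalization 4 were higher and none lower. Ulk1, its catalytic subunit, read 2.35 and 2.39 in control, 2.26 and 2.38 under isorhamnetin, 2.36 and 2.14 under tamarixetin, and 2.88 and 2.90 under Torin1. The Torin1 arrays stand above the other 6, and the difference from control was 0.52 ± 0.09 (SE), 1.43-fold, with an adjusted p of 0.00519 by limma. Atg13, the regulatory subunit that binds ULK1, read 3.18 and 3.22 in control, 3.40 and 3.34 under isorhamnetin, 3.29 and 3.16 under tamarixetin, and 3.88 and 3.83 under Torin1. It rose by 0.65 ± 0.07 (adjusted p of 0.000918, limma), again with no overlap with any other group. Rb1cc1, which encodes the scaffold FIP200, read 0.46 and 0.53 in control, 0.60 and 0.57 under isorhamnetin, 0.56 and 0.47 under tamarixetin, and 1.12 and 1.24 under Torin1. Its rise was 0.68 ± 0.07, or 1.61-fold (adjusted p of 0.000893, limma). The other two were not called. Atg101, which stabilises ATG13, differed by 0.15 ± 0.06. It was called higher in 4 of 20 other settings, with 0.28 under quantile normalization (adjusted p of 0.011, limma), and turned to -0.04 under median scaling. Ulk2, the second kinase of the family, differed by -0.14 ± 0.06 with its Torin1 arrays at 0.66 and 0.53 against 0.70 and 0.76 in control. Ulk2 was called lower under median scaling (-0.32, adjusted p of 0.0349, limma) and with the mean of its probes (-0.20, adjusted p of 0.0378), and its second probe differed by -0.27 (adjusted p of 0.0279 in a limma fit of all probes). The difference between Ulk1 and Ulk2 was not tested. The call of Ulk1 was lost when arrays were scaled on their median (0.33, adjusted p of 0.0973, limma).

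The class III PI3-kinase group was mixed, with 2 members higher, 1 lower and 3 not called of 6 (50% called, near the 49.4% of all genes). Its median of 0.10 turned to -0.08 under median scaling. Atg14, the subunit that directs the kinase to the forming autophagosome, read 0.08 and 0.10 in control, -0.04 and -0.06 under isorhamnetin, 0.09 and 0.09 under tamarixetin, and 1.05 and 1.06 under Torin1. It rose by 0.96 ± 0.05, 1.95-fold (adjusted p of 0.000127, limma). Uvrag, the subunit that takes the place of ATG14 in the kinase of the endosome, moved the other way, from 3.96 and 4.0 in control to 3.67 and 3.70 with Torin1. Its levels with isorhamnetin were 3.82 and 3.81, and with tamarixetin 4.05 and 3.91. The fall was -0.30 ± 0.06 (adjusted p of 0.0116, limma), and it missed the threshold without control replicate 2 (adjusted p of 0.0611), without Torin1 replicate 1 (0.063) and without the filter (0.0734). Its size was -0.49 under median scaling and -0.18 under quantile normalization. The 2 subunits that define alternative forms of this kinase thus passed the test in opposite directions. Pik3r4, which encodes the pseudokinase scaffold VPS15, read 0.48 and 0.74 in control, 0.68 and 0.73 under isorhamnetin, 0.53 and 0.63 under tamarixetin, and 1.08 and 1.02 under Torin1. It rose by 0.44 ± 0.10 (adjusted p of 0.0135, limma), and the call was lost without Torin1 replicate 1 (adjusted p of 0.0679), without the filter (0.0584) and under median scaling (0.26, adjusted p of 0.0921). Pik3c3, the lipid kinase itself, differed by 0.31 ± 0.13 and was not called (adjusted p of 0.0872), except with trend and robust eBayes (0.0409). Becn1, which encodes Beclin 1, differed by -0.14 ± 0.13, and Ambra1, an activator of Beclin 1, by -0.11 ± 0.08, neither of them called.

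The genes for lipid supply and for proteins that bind PI3P had 5 of 7 members higher with Torin1, none lower and a median of 0.50 (4 higher and 0.31 under median scaling). The share called was 71.4%, against 49.4% of all genes. Atg2a, which encodes a lipid transfer protein, read 1.94 and 2.06 in control, 2.06 and 2.08 under isorhamnetin, 2.07 and 1.94 under tamarixetin, and 3.09 and 3.05 under Torin1. This is a rise of 1.07 ± 0.07, 2.09-fold (adjusted p of 0.000284, limma). Its paralog Atg2b read 0.08 and 0.12 in control and 0.15 and 0.19 with Torin1, a difference of 0.07 ± 0.06 that was not called and turned to -0.12 under median scaling. Wdr45, the gene of the PI3P-binding protein WIPI4 that works with ATG2, read 1.11 and 1.04 in control, 1.30 and 1.20 under isorhamnetin, 1.00 and 0.93 under tamarixetin, and 2.04 and 2.02 under Torin1. It rose by 0.95 ± 0.06, 1.94-fold (adjusted p of 0.000267, limma). Of the other PI3P-binding proteins, Wipi1 read -1.07 and -1.06 in control, -0.93 and -0.97 under isorhamnetin, -1.28 and -1.29 under tamarixetin, and -0.63 and -0.52 under Torin1. The Torin1 arrays were above all others, with a rise of 0.50 ± 0.06 (adjusted p of 0.00148, limma), which was 0.32 under normexp and 0.31 under median scaling. Wipi2, which brings ATG16L1 to the membrane, read -0.13 and -0.15 in control, -0.19 and -0.03 under isorhamnetin, -0.26 and -0.38 under tamarixetin, and 0.07 and 0.37 under Torin1. Its rise of 0.36 ± 0.12 passed the threshold only just (adjusted p of 0.0483, limma). The call was lost in 11 of 20 other settings, among them without any array other than Torin1 replicate 1 (0.21 without Torin1 replicate 2, adjusted p of 0.176) and under median scaling (0.18, adjusted p of 0.385). Vmp1, an endoplasmic reticulum scramblase needed to form the autophagosome, read 4.75 and 4.88 in control, 5.07 and 4.95 under isorhamnetin, 4.67 and 4.85 under tamarixetin, and 5.55 and 5.51 under Torin1. Its difference was 0.71 ± 0.09 (adjusted p of 0.00191, limma). Atg9a, which encodes the scramblase of the seed vesicles, read -2.52 and -2.61 in control and -2.46 and -2.53 with Torin1, which is 0.07 ± 0.12 and was not called.

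Among the conjugation enzymes 2 of 6 were higher with Torin1, 1 was lower, and the median was 0.02, or -0.17 under median scaling. The share called, 50%, was near the 49.4% of all genes. Atg7, the E1-like enzyme that activates both ATG12 and the ATG8 proteins, read 1.07 and 1.04 in control, 1.08 and 1.06 under isorhamnetin, 1.13 and 0.92 under tamarixetin, and 1.79 and 1.74 under Torin1. It rose by 0.72 ± 0.08, 1.65-fold (adjusted p of 0.00137, limma), and by 1.29 under normexp. Under normexp the brightest probe was chosen anew, so the 1.29 may be that of the other Atg7 probe. Atg12, the ubiquitin-like protein joined to ATG5, read 3.22 and 3.20 in control, 3.14 and 3.06 under isorhamnetin, 3.27 and 3.11 under tamarixetin, and 3.67 and 3.58 under Torin1. Its rise of 0.42 ± 0.08 had an adjusted p of 0.00708 by limma, and 0.167 under median scaling, where the difference was 0.23. Atg10, the E2-like enzyme for ATG12, read 0.14 and 0.04 in control, 0.09 and 0.18 under isorhamnetin, 0.07 and 0.20 under tamarixetin, and -0.33 and -0.13 under Torin1. It fell by 0.32 on the log2 scale (SE 0.09, adjusted p of 0.0354, limma). The Atg10 call ended without control replicate 1 (adjusted p of 0.144), control replicate 2 (0.0759), Torin1 replicate 1 (0.155) or either isorhamnetin array (0.0539). It was also lost without the filter (0.122), with 2 groups at a time (0.0647), with the percentile over spots (0.0569) and with the mean of its probes (-0.09, adjusted p of 0.221), and the size was -0.51 under median scaling. Atg3, the E2-like enzyme for the ATG8 proteins, differed by 0.11 ± 0.06 and was not called. It was called higher under quantile normalization (0.32, adjusted p of 0.00462, limma) and turned to -0.08 under median scaling. Atg5, the partner of ATG12, read 2.81 and 2.83 in control and 2.65 and 2.44 with Torin1. Its difference of -0.27 ± 0.10 missed the threshold (adjusted p of 0.0612, limma). It passed in 5 of 20 other settings: without Torin1 replicate 1 (-0.38, adjusted p of 0.0428), with the replicate block (0.044), with trend and robust eBayes (0.0189), with a filter that asked for signal above background on all 8 arrays (0.0377), and under median scaling (-0.46, 0.0282). Atg16l1, which places the ATG12-ATG5 conjugate on the membrane, differed by -0.07 ± 0.08 and was not called, with a value of 0.06 under quantile normalization.

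The ATG4 proteases cut ATG8 proteins before lipidation and remove them from membranes afterwards. None of these 4 genes was higher with Torin1, and 2 were lower (50% called, near the 49.4% of all genes, of which 30.1% were lower). Atg4d read 4.07 and 4.14 in control, 4.21 and 4.09 under isorhamnetin, 4.09 and 4.07 under tamarixetin, and 3.56 and 3.53 under Torin1. The fall of 0.56 on the log2 scale (SE 0.06, adjusted p of 0.00124, limma), 1.47-fold, left the Torin1 arrays below the other 6. Atg4a read 1.32 and 1.25 in control, 1.22 and 1.29 under isorhamnetin, 1.46 and 1.27 under tamarixetin, and 0.95 and 1.06 under Torin1. It differed by -0.28 ± 0.09 (adjusted p of 0.0397, limma). The Atg4a call ended without control replicate 1 (adjusted p of 0.152), control replicate 2 (0.0895), Torin1 replicate 1 (0.171), Torin1 replicate 2 (0.0693) or either isorhamnetin array (0.062). It was also lost under quantile normalization (0.0632), without the filter (0.141), with the replicate block (0.0685) and with the percentile over spots (0.0582), and the size was -0.46 under median scaling. Atg4b, the protease with the broadest activity on ATG8 proteins, differed by 0.02 ± 0.06 and Atg4c by 0.06 ± 0.08, and neither was called. Both turned below 0 under median scaling, to -0.16 and -0.13, where the median of the 4 genes was -0.31 rather than -0.13.

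Of the ATG8 family, the proteins that coat the autophagosome, 2 of 5 were higher with Torin1 and none was lower, with a median of 0.23 (0.05 under median scaling and 0.39 under quantile normalization). The share called, 40%, was below the 49.4% of all genes. Map1lc3b, whose product LC3B is the usual marker of autophagosomes, read 5.87 and 5.93 in control, 6.00 and 5.89 under isorhamnetin, 5.97 and 5.97 under tamarixetin, and 6.54 and 6.47 under Torin1. It rose by 0.60 ± 0.06, 1.52-fold (adjusted p of 0.00116, limma). Gabarap, of the branch of the family that binds the ULK1 complex most strongly, read 5.88 and 5.90 in control, 5.85 and 5.73 under isorhamnetin, 5.88 and 5.80 under tamarixetin, and 6.23 and 6.24 under Torin1. The rise of 0.35 ± 0.06 (adjusted p of 0.00674, limma) was 0.16 under median scaling (adjusted p of 0.252) and 0.54 under quantile normalization. The other three were not called. Map1lc3a differed by 0.23 ± 0.13, with Torin1 arrays at -1.54 and -1.21 against -1.64 and -1.59, and passed the threshold without Torin1 replicate 1 (0.40, adjusted p of 0.0487). Gabarapl1 differed by 0.20 ± 0.12 and was called under quantile normalization (0.39, adjusted p of 0.024, limma), and Gabarapl2 by -0.13 ± 0.07, or 0.10 under quantile normalization. These genes are close paralogs, and cross-hybridisation between their probes was not tested.

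Of the 2 genes for proteins that tether autophagosomes to lysosomes, Tecpr1 had the largest rise of all 35. It read 0.93 and 0.79 in control, 1.01 and 0.99 under isorhamnetin, 1.12 and 0.86 under tamarixetin, and 2.48 and 2.28 under Torin1. The difference was 1.52 with a 95% interval from 1.23 to 1.81, 2.87-fold (adjusted p of 0.00042, limma). Tecpr1 encodes a tether that binds the ATG12-ATG5 conjugate and also acts on damaged lysosomes. Epg5, a tether that binds RAB7, differed by 0.11 ± 0.07 and was not called, and it was -0.08 under median scaling.

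**Figure D2:**
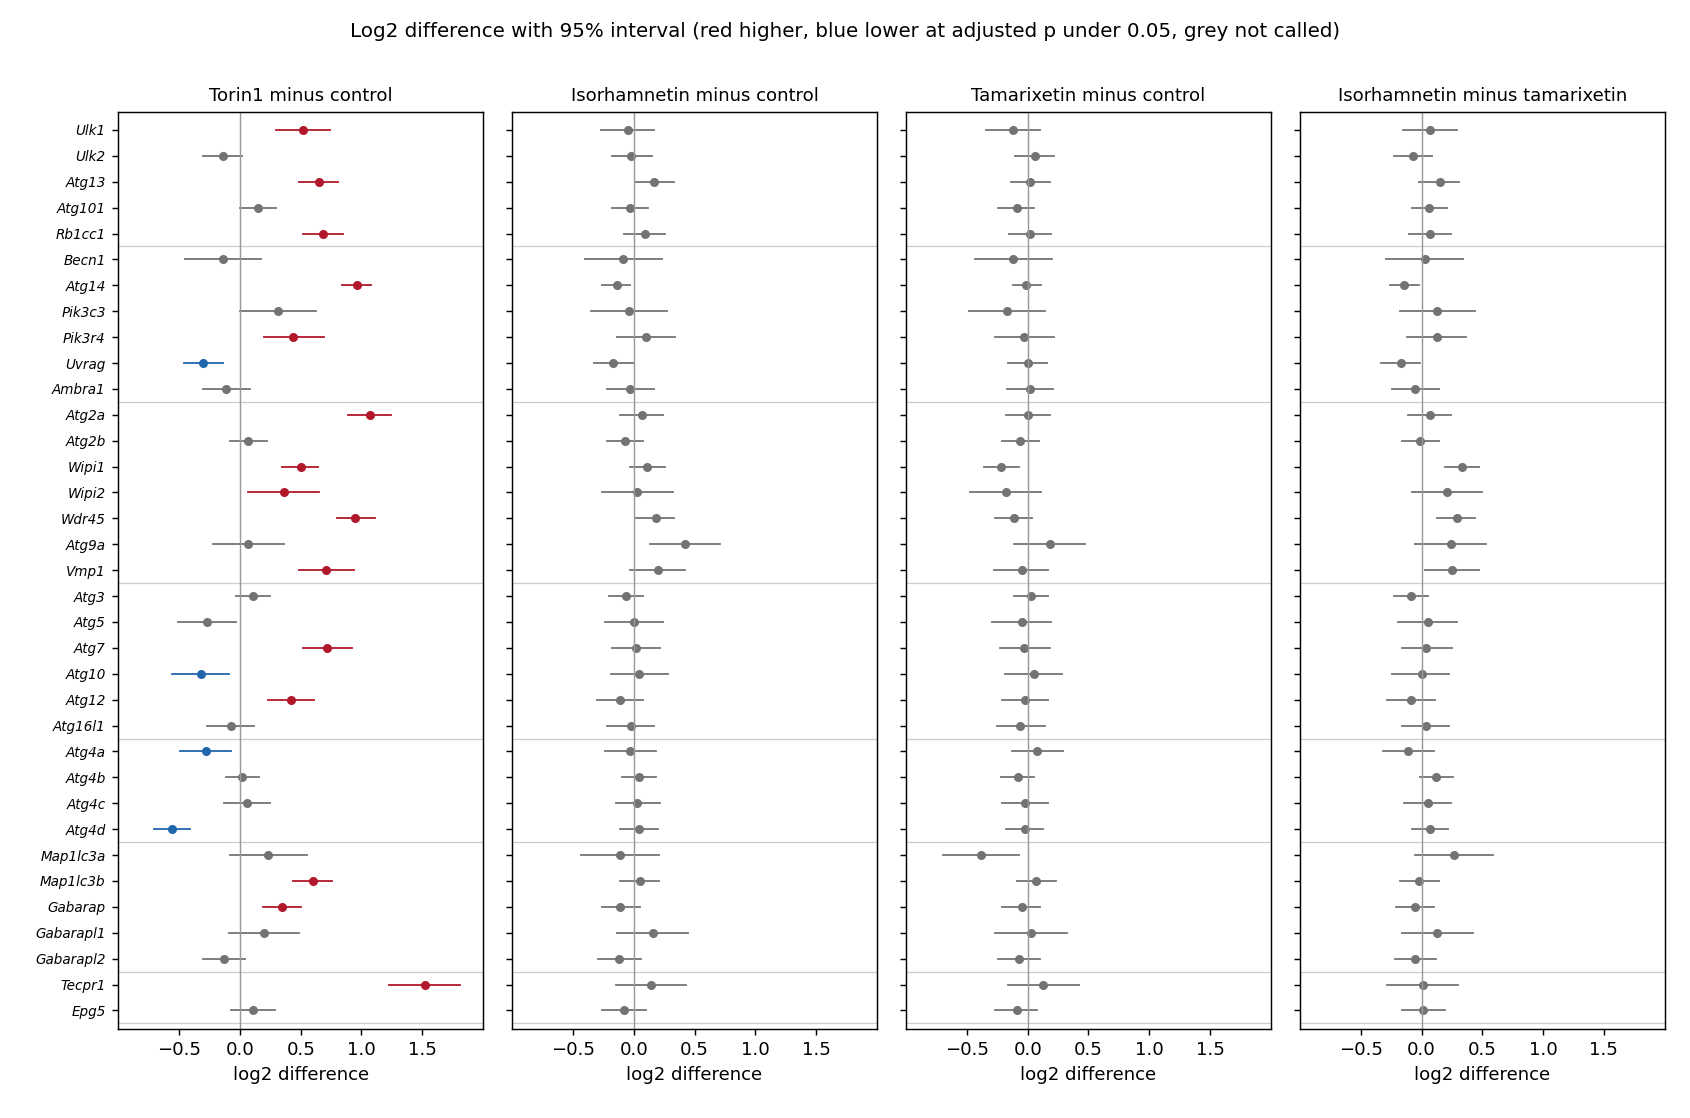
Log2 difference of each of the 35 transcripts (points) with its 95% interval (lines) for Torin1, isorhamnetin and tamarixetin against control and for isorhamnetin against tamarixetin, 2 arrays a group. With Torin1, 15 members are red (higher) and 4 blue (lower), and in the other 3 panels all 35 are grey (not called).

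Of the 19 calls with Torin1, 11 stood in each of the other settings that gave a value: Atg13, Rb1cc1, Atg14, Atg2a, Wipi1, Wdr45, Vmp1, Atg7, Map1lc3b and Tecpr1 higher and Atg4d lower. No call turned its direction in any setting. Atg13 and Tecpr1 have their spots in the outer columns, so the setting without outer spots gave no value for them. The choice of scale moved the balance in both directions. On the array median in place of the 75th percentile 10 members were higher and 6 lower, and 22.0% rather than 39.0% of all called genes were higher. Under quantile normalization 18 members were higher and 3 lower, with 44.1% of all called genes higher.

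Several members have more than 1 probe, each of which gives a reading of its own. Of 53 member probes 49 passed the filter, and 11 members had 2 or more that did. In 9 of these 11 all probes had the same sign of the Torin1 difference, with a median range between probes of 0.13. A second Atg7 probe, designed to another RefSeq transcript of the gene, read 0.77 and 0.81 in control and 2.16 and 2.21 with Torin1. Its rise of 1.40 ± 0.06 (adjusted p of 0.000109 in a limma fit of all probes) was larger than the 0.72 ± 0.08 of the brighter probe, so the size of the Atg7 change depends on the probe. The 5 probes of Rb1cc1 ranged from 0.34 to 1.07, all above 0. Wdr45 read 0.95 and 1.16, Vmp1 0.71 and 0.77, and Map1lc3b 0.60 and 0.54 as differences on their 2 probes each. The second Atg10 probe differed by 0.15 with Torin1 against -0.32 on the brighter probe, so the fall of Atg10 was not seen on both. The widest range, 0.74, was that of Atg2b, whose dimmer probe had an SE of 0.44. All probes had the same sign in 7 of the 11 with isorhamnetin, 5 with tamarixetin and 7 between the isomers. Atg2b again had the widest range in each, up to 1.60 with tamarixetin.

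**Figure D3:**
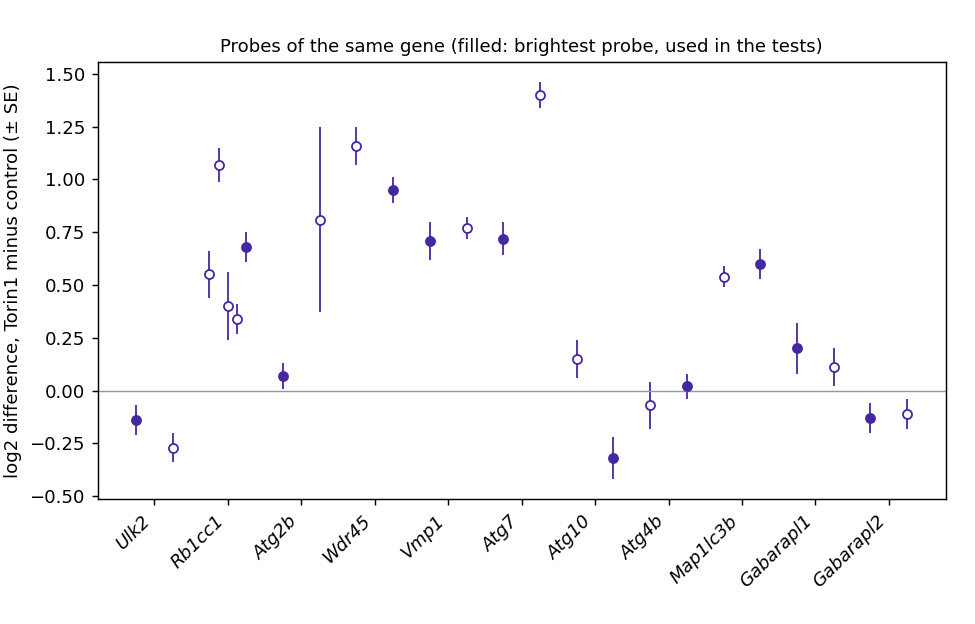
Log2 difference of Torin1 minus control (vertical axis, with SE) for each probe of the 11 members with 2 or more probes above background. Filled points are the brightest probe, used in the tests, and open points the others. The Rb1cc1 probes run from 0.34 to 1.07, the Atg7 probes stand at 0.72 and 1.40, and those of Atg10 lie on opposite sides of 0.

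The transcription factors TFEB and TFE3, which mTOR holds in the cytoplasm and which drive lysosomal and autophagy genes, bind E-boxes with the letters CACGTG. The promoter windows of RefSeq (GRCm38.p6), from 250 bases before to 50 bases after a gene's start, were available for 28 of the 35 members. On either strand CACGTG was found in 4 of the 28 (14.3%), those of Atg14, Atg7, Atg3 and Atg5, against 8.09% of all genes with a window. Its extended form TCACGTG, which contains it, was found in 3 of the 28, against 4.29% of all genes with a window, in Atg14, Atg7 and Atg3. The FOXO motif GTAAACA was in none of the 28 (4.05% of all genes), and TGACNNNGC, the antioxidant response element, was in 4 (14.3% against 14%), those of Atg13, Map1lc3b, Ulk2 and Vmp1. The windows that hold CACGTG are printed 5′ to 3′ on the gene's strand up to 30 bases after the start, with CACGTG in capitals, because 2 of them belong to members that rose with Torin1 (Atg14 and Atg7) and 2 to members that were not called (Atg3 and Atg5). They lie at chr14:47568405-47568684 on the minus strand for Atg14, and on the plus strand at chr6:114670846-114671125 for Atg7, chr16:45158579-45158858 for Atg3 and chr10:44268089-44268368 for Atg5.
Atg14: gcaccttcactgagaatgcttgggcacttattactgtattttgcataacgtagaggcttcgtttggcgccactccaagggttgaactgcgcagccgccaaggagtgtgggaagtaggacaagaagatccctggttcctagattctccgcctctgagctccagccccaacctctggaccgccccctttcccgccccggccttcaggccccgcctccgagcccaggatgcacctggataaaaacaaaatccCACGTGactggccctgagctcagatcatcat
Atg7: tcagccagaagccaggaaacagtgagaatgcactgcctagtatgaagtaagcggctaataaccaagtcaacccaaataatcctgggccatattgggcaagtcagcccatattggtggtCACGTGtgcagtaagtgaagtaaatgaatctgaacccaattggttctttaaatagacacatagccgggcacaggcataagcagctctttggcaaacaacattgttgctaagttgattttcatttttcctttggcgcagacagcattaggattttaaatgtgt
Atg3: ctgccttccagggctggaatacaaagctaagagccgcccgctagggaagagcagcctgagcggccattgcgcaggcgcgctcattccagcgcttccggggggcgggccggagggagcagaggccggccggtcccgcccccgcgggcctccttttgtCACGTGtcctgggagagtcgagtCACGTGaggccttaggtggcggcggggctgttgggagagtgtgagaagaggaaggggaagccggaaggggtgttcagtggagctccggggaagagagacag
Atg5: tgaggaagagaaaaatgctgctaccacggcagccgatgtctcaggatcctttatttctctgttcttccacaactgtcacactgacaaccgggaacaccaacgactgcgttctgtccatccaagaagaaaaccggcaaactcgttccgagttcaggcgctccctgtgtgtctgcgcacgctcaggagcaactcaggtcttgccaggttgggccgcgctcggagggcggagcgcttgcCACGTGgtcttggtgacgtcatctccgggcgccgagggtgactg
In Atg14 the motif begins 1 base before the start, and in Atg7 132 bases before it. Atg3 holds 2 copies, 94 and 71 bases before the start, and Atg5 1 copy 14 bases before it. Of the 13 members that rose with Torin1 and have a window, 2 hold CACGTG and 3 hold TGACNNNGC. A match is a stretch of letters, and binding was not measured.

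Other genes of the pathway were read from 5 lists, beside 19.3% of all genes higher and 30.1% lower with Torin1. The receptors that bind cargo to ATG8 proteins had 9 of 15 tested genes higher with Torin1 and 2 lower, with a median of 0.41. The share called was 73.3%, against 49.4% of all genes. Under median scaling 5 were higher and 4 lower, with a median of 0.22. Sqstm1, the gene of the receptor p62, read 5.44 and 5.49 in control and 7.31 and 7.39 with Torin1, a rise of 1.88 ± 0.07 (adjusted p of 6.05e-05, limma). Retreg1, a receptor for the endoplasmic reticulum, rose by 1.09. Calcoco1 was not well above background in control and was at least 2.11-fold higher with Torin1 (adjusted p of 0.00414, limma), counted against the lowest signal above background. Bnip3, a receptor for mitochondria, fell by 1.50 on the log2 scale. The lysosome reference list had 14 of 16 higher and none lower, with a median of 0.74, led by Atp6v1a at 1.47, Ctsb at 1.44 and Clcn7 at 1.37. Under median scaling 10 of the 16 were higher.

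The fusion list was mixed, with 3 of 18 higher, 4 lower and a median of -0.03 (38.9% called, below the 49.4% of all genes). Plekhm1, an adaptor between ATG8 proteins, RAB7 and the HOPS complex, rose by 2.19 ± 0.06 and the HOPS subunits Vps39 by 0.71 and Vps41 by 0.34, while Rab2a fell by 0.47, Mon1a by 0.42 and Vamp8 by 0.38. Under quantile normalization 8 genes of this list were higher and 3 lower, and under median scaling 2 and 5. Vps41 was not called under median scaling or without the filter. The regulators of mTOR, AMPK and TFEB had 7 of 25 higher and 4 lower, with a median of 0.01 (44% called, below the 49.4% of all genes). Fnip2 rose by 2.43, Fnip1 by 1.23 and Flcn by 0.84, the folliculin complex that controls the factor TFEB through the Rag GTPases. Ddit4 fell by 5.41 and Sesn2 by 1.26 on the log2 scale, both of which encode inhibitors of mTOR complex 1, and Tfeb itself fell by 0.40. The Tfeb call was lost in 8 of 20 other settings, among them without control replicate 2 or either Torin1 array, with an adjusted p of up to 0.169. Under median scaling 6 genes of this list were higher and 7 lower, with a median of -0.18.

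The relatives of the members, paralogs and partners outside the 35, had 6 of 11 tested genes lower with Torin1, 2 higher and a median of -0.28. The share called was 72.7%, against 49.4% of all genes (30.1% lower). The 8 calls were 5 without control replicate 1, control replicate 2 or Torin1 replicate 1. Under median scaling 1 was higher and 7 lower, and under quantile normalization 4 and 6. Wdr45b, the gene of WIPI3, read -0.56 and -0.59 in control and -1.77 and -1.28 with Torin1, a fall of 0.95 (SE 0.19, adjusted p of 0.0095, limma) where Wdr45 rose by 0.95. Tmem41b, which encodes a scramblase that works with VMP1, read 3.09 and 3.34 in control and 2.45 and 2.38 with Torin1, and fell by 0.80 where Vmp1 rose by 0.71. Tecpr2 differed by -0.28 and was not called (adjusted p of 0.0529, limma), beside the rise of 1.52 in Tecpr1. Ulk3 rose by 0.66 ± 0.08, beside the 0.52 ± 0.09 of Ulk1, and Zfyve1, a marker of the membrane site where autophagosomes form, by 0.57. The Zfyve1 call was lost under median scaling and without control replicate 1 or Torin1 replicate 1, with an adjusted p of up to 0.102. Stk36 fell by 0.54 and lost its call in 7 of 20 other settings, among them without any of the 4 control and Torin1 arrays, with an adjusted p of up to 0.158. The differences between paralogs were not tested.

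**Figure D4:**
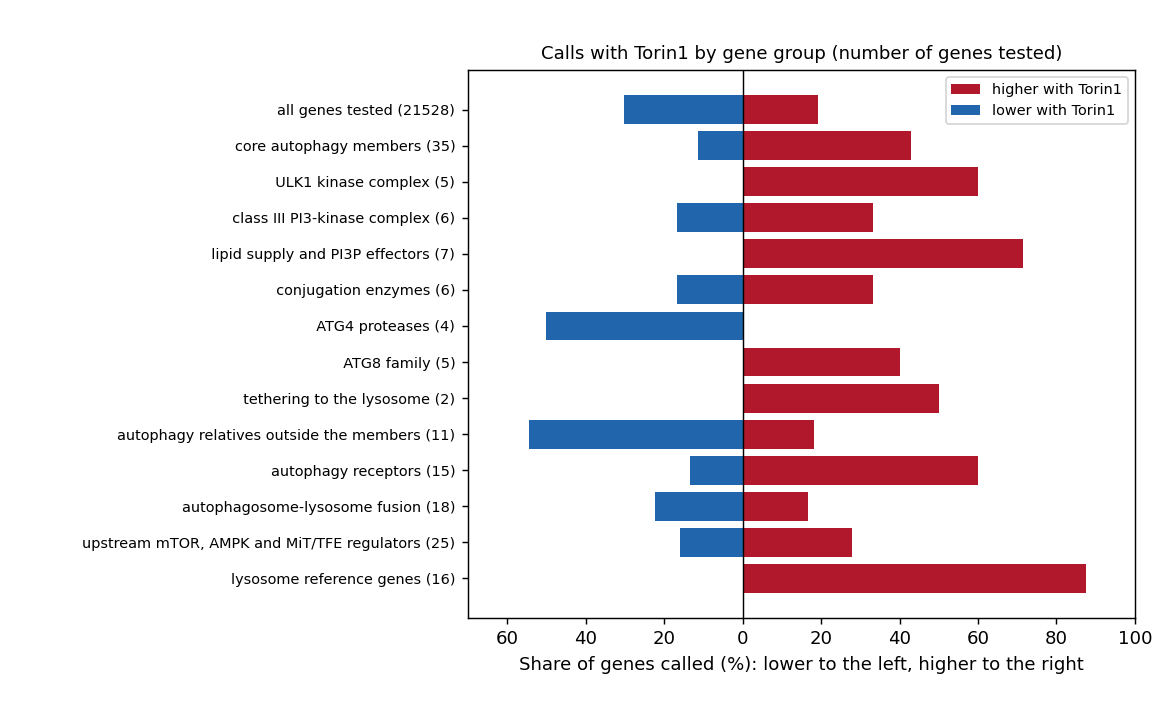
Share of genes called lower (left, blue) and higher (right, red) with Torin1 for all genes, for the 35 members, for their roles and for 5 lists outside them, with the number of genes tested in brackets. Over all genes the lower share is the larger (30.1% against 19.3%), while 15 of the 35 members are higher and 4 lower, and 14 of 16 lysosome genes are higher and none lower.

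With 2 arrays a group, small changes of these transcripts with isorhamnetin at 6 h could have been missed. None of the 35 members was called, where 0.543% of all genes were (0.418% higher and 0.125% lower), and 5 members had an unadjusted p under 0.05 (14.3%, against 15.4% of all genes). The differences ran from -0.17 to 0.42 with a median of 0.00, and for 34 of the 35 the 95% interval lay within 0.5 of 0. Groups did not overlap for 7 members above control and 7 below, against 49.7% of all genes. Of the 21528 genes, 5541 lay wholly above control and 5165 wholly below. Atg9a read -2.26 and -2.05 against -2.52 and -2.61 in control, a difference of 0.42 with an interval from 0.13 to 0.71 (adjusted p of 0.195, limma). Under normexp background correction this difference was 0.14. The other four with an unadjusted p under 0.05 were Wdr45 at 0.18, Atg13 at 0.17, Uvrag at -0.17 and Atg14 at -0.14. All of these are values of the brightest probes. The dimmer probe of Wdr45 differed by 0.35 (SE 0.09) with isorhamnetin and was not called. Among the receptors, relatives, fusion, regulator and lysosome genes, Sqstm1 alone was called, at 6.17 and 6.28 against 5.44 and 5.49 in control (0.76 ± 0.07, adjusted p of 0.0201, limma). That call was lost in 11 of 20 other settings, among them without either control, either isorhamnetin or either Torin1 array, with an adjusted p of up to 0.145 and a difference of 0.70 to 0.82.

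Tamarixetin gave no called member either, where 0.079% of all genes were called (0.0697% higher and 0.00929% lower, so that 88.2% of the calls were higher, or 71.4% under quantile normalization, 78.3% under median scaling and 48.9% with trend and robust eBayes), and 2 members had an unadjusted p under 0.05 (5.71%, against 14.3% of all genes). The differences ran from -0.38 to 0.18 with a median of -0.03 (-0.05 over all genes), and 34 of the 35 intervals lay within 0.5 of 0. These values are those of the brightest probes. The dimmer probe of Atg2b differed by 1.54 (SE 0.44) and was not called. Groups did not overlap for 3 members above control and 11 below, against 46.9% of all genes. Of the 21528 genes, 2995 lay wholly above control and 7106 wholly below. Map1lc3a read -1.94 and -2.06 against -1.64 and -1.59 in control, a difference of -0.38 with an interval from -0.70 to -0.07 (adjusted p of 0.294, limma). Wipi1 read -1.28 and -1.29 against -1.07 and -1.06, a difference of -0.22 with an interval from -0.36 to -0.07 (adjusted p of 0.228, limma). No gene of the 5 lists was called.

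The isomers were given at the same dose and time and were compared directly, as 1 pair with p-values adjusted over all genes. No member was called between them, where 0.827% of all genes were (0.585% higher and 0.242% lower with isorhamnetin, so that 70.8% of the calls were higher, or 58.0% under median scaling, 5.7% without the filter, and 42.7% and 48.2% without tamarixetin replicate 1 or 2), and 5 members had an unadjusted p under 0.05 (14.3%, against 13.3% of all genes). The 95% interval lay within 0.5 of 0 for 32 of the 35 on the brightest probes. The dimmer probe of Atg2b differed by -1.38 (SE 0.44) and was not called. Wipi1 differed most, by 0.33 ± 0.06 higher with isorhamnetin (interval from 0.19 to 0.47, adjusted p of 0.0973, limma), and both isorhamnetin arrays lay above both tamarixetin arrays. Without the filter on dim probes Wipi1 was called (0.33, adjusted p of 0.0277, limma). In that setting 30.9% of all genes were called, and 2.9% of members. Wdr45 differed by 0.29 ± 0.06 (interval from 0.13 to 0.44, adjusted p of 0.149) and Vmp1 by 0.25 ± 0.09 (interval from 0.03 to 0.47, adjusted p of 0.33). The other two, Uvrag and Atg14, were lower with isorhamnetin by -0.17 and -0.14. Groups did not overlap for 11 members above and 4 below, against 42.4% of all genes. Of the 21528 genes, 6589 lay wholly above with isorhamnetin and 2545 wholly below. Sqstm1 differed by 0.78 ± 0.07 (adjusted p of 0.015, limma), a call lost in 8 of 20 other settings, among them without either control or either isorhamnetin array (adjusted p of up to 0.0852 over the arrays left out). Torin1 was given at another dose than the flavonols, and the 3 comparisons share their control arrays, so their values stand side by side: Tecpr1 differed from control by 1.52 with Torin1, 0.14 with isorhamnetin and 0.13 with tamarixetin, and Atg14 by 0.96, -0.14 and -0.01.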

How the data were processed

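Total RNA of 8 J774.1 cultures (4 groups of 2) was read on 1-colour Agilent arrays. Per the file headers, the authors' processed signal is an intensity after background subtraction and spatial detrending within the array, read with Agilent Feature Extraction 10.7.1.1 per the submitters' processing notes. The authors also deposited log2 values. Log2 processed signal minus the array's 75th percentile over all 56605 probes, centred per probe, gave these within 0.01 for 99.8% of probes. The direction and centring of the deposited values follow from this match. The median pixel and background intensities deposited by the authors served 1 alternative.

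Outlier spots were dropped (323 probes left out) and spots of a probe averaged. The filter kept the 27562 probes that rose well above background on each array of some group. Names came through RefSeq accessions of the GRCm38.p6 gene names, and 32994 probes had a symbol. The brightest probe stood for a gene, giving 21528 genes, 8591 of them without a symbol. Since the array's header names another build (mm9), array coordinates are left out.

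The test was that of limma (version 3.58.1, run in R version 4.3.3 with data.table version 1.17.8). Each group had its own mean, and all 8 arrays entered 1 fit with 4 residual degrees of freedom. P-values are two-sided and Benjamini-Hochberg adjusted over all genes, with calls under 0.05. No exact test of 2 arrays against 2 can go below 0.333. The fit was tested on simulated data made for Torin1 against control over 21528 genes, with 50 genes changed at each size. Of these, 36.0% of changes of 0.5, 62.0% of 1 and 90.0% of 2 log2 units were recovered, and 0.0% of 0.25. With the measured Torin1 arrays 10642 genes were called, so the adjusted threshold was less strict there. The simulated shares therefore do not give the recovery of that comparison. Each group has 2 arrays, which limits the precision.

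Members, roles, marker and pathway lists were chosen with earlier results of these data known. Members called or different by 0.5 or more are given on all 8 arrays, the others by their difference. Of each pathway list at most 3 genes per direction are given values. Tecpr2 lies outside that rule, was chosen after its values were seen and stands beside its paralog. The lists also hold genes without a probe that passed the filter (Rubcnl, Optn and Rragd), not tested here. The alternatives were normexp background correction with an offset of 50, quantile and median scaling, no filter, probes above background on all 8 arrays, the mean of the probes, the authors' values, 2 groups at a time, the replicate number as a block, trend and robust eBayes, each array left out, and no spots in the outer 2 rows and columns. Scaling by the 75th percentile over spots was added after seeing the data.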

Additional observations from a re-analysis of the deposited data

How the results depend on the processing

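Over 20 other settings the number of members called with Torin1, 19 in the report, lay between 14 and 22, and between 15 and 18 with an array left out. For isorhamnetin and for tamarixetin against control it was 0 in each of the 20. Between the isomers it was 1 without the filter on dim probes (Wipi1), where 30.9% of all genes were called, and 0 in the others. No member called with Torin1 turned its sign, and 8 lost their call in at least 1 setting. Among members that were not called, the Torin1 difference turned its sign under median scaling for Atg101 (-0.04), Atg2b (-0.12), Atg3 (-0.08), Atg4b (-0.16), Atg4c (-0.13), Atg9a (-0.11) and Epg5 (-0.08). It did so under quantile normalization for Atg9a (-0.13), Atg16l1 (0.06) and Gabarapl2 (0.10), under normexp for Epg5 (-0.02), and with the mean of the probes for Atg4b (-0.02). With an array left out it ran from -0.02 (without control replicate 1) to 0.06 for Atg4b, from -0.02 (without Torin1 replicate 1) to 0.13 for Atg4c, and from -0.16 to 0.01 (without Torin1 replicate 2) for Atg16l1. The cause was not tested.

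Genes called over the whole array moved more with the setting for the flavonols than for Torin1. With isorhamnetin, 117 in the report, they were 13 with median scaling, 6 without the filter, 376 with probes above background on all 8 arrays, 0 with 2 groups at a time (here without the pooled spread), 436 with trend and robust eBayes, and 5 to 75 with an array left out. With tamarixetin, 17 in the report, they were 8 with normexp, 12523 without the filter, 0 with probes above background on all 8 arrays, 88 with trend and robust eBayes, and 0 to 146 with an array left out. Between the isomers, 178 in the report, they were 100 with normexp, 14017 without the filter, 1 with 2 groups at a time, 270 with trend and robust eBayes, and 39 to 272 with an array left out. Without the filter 4 of the relatives were called with Torin1 in place of 8. Counts in the 5 pathway lists for the flavonols were at most 2 in any setting. With Torin1 the genes called over the whole array, 10642 in the report, were 7230 to 11441, and 7479 to 10876 with an array left out.

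Replicate numbers recur across groups, but same-numbered arrays did not deviate together: the correlation of replicate differences over genes was -0.06, 0.08 and -0.04 for isorhamnetin, tamarixetin and Torin1 against control, and -0.13 between the isomers. With the replicate number as a block, 18 members were called with Torin1 and 0 in the other comparisons, and the genes called were 9711, 4 with isorhamnetin, 11 with tamarixetin and 43 between the isomers. Dim probes limit what can be read: Calcoco1 in control has only a bound.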
